A study of Homo sapiens with 30 samples.

Results

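Histone mRNAs made during DNA replication were followed in cytosol and stress-granule RNA of a pair of HEK293 lines. The set consists of the 65 genes of 60664 in the deposited count table whose symbols name a linker histone H1-1 to H1-5 (5 genes) or a numbered copy of the core histones H2A (16 genes), H2B (17), H3 (13) and H4 (14). Of these, 54 lie in the clusters of chromosome 6 and 11 in those of chromosome 1. The rule that picks the members uses the symbol and no measured value; the set was proposed with earlier results of these data known.

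Replication-dependent histone genes are switched on as cells enter S phase and supply the proteins that wrap newly made DNA. Most of their mRNAs are unspliced and carry no poly(A) tail. They end instead in a short stem-loop, which is bound by the protein SLBP and governs their processing, translation and rapid decay when replication stops. Replacement histones such as H3-3B or H2AZ1 are encoded elsewhere, are made throughout the cell cycle and have ordinary polyadenylated mRNAs.

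HEK293 is an established human embryonic kidney line. The derivatives used here descend from the Flp-In T-REx version, in which tetracycline switches on a transgene, and express a GFP fusion of TIA1a. TIA1 proteins bind RNA and gather in stress granules. In 1 line the fusion is wild-type (WT), and in the other it carries the mutation of Welander distal myopathy (WDM), an adult-onset muscle disease. Each genotype is therefore represented by 1 stable line. Cytosol RNA came from 6 groups: each line untreated, with tetracycline, or with tetracycline and 0.5 mM sodium arsenite for 60 min, an oxidative stress that drives granule formation. Granule RNA, from a pellet pulled down through GFP, came from 4 groups: each line with tetracycline, without or with arsenite. Each group had 3 libraries, 30 in all, made from total RNA after removal of rRNA, so that mRNAs without poly(A) were retained. The labels do not say whether the 3 came from separate cultures, so p-values measure the spread between these libraries, which may be technical.

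The stem-loops are shown first, because they mark the class of mRNA. A 16-base pattern of GG, any 3 bases, TTNTNA, any 3 bases and CC (N, any base), searched on the gene's own strand, was found within 150 bases after the stop codon in all 65 members, and in 47 of 19859 other protein-coding genes (0.237%). It began a median of 36 bases after the stop codon (range 23 to 68). The 16-base match is in capitals with 5 bases on either side, as read from GRCh38.
H1-2, chr6:26055739-26055764, minus strand: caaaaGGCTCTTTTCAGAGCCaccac
H2AC18, chr1:149842218-149842243, minus strand: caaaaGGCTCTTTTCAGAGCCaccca
H2AC11, chr6:27133510-27133535, plus strand: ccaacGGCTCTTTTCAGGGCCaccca
H2BC10, chr6:26273387-26273412, plus strand: ccaaaGGCTCTTCTAAGAGCCaccca
H3C7, chr6:26250140-26250165, minus strand: ccaaaGGCTCTTTTCAGAGCCaccaa
H4C14, chr1:149833027-149833052, plus strand: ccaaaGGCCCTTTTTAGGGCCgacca
H4C15, chr1:149860764-149860789, minus strand: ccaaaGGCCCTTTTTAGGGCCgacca
The first form, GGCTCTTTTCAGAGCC, was shared by 38 members of the H1, H2A, H2B and H3 classes. All 14 H4 copies had a core starting GGCCCTT, and no member of another class did. H2AC11 combined the left arm of the first form with the right arm of the H4 form. The stem-loops of H4C14 and H4C15 were identical over all bases shown.

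Sequence sharing limits what can be said of single copies. For the chromosome 1 pairs H2AC18 and H2AC19, H3C14 and H3C15, and H4C14 and H4C15, 97.1% to 100% of 50-base windows also occurred in another member. The member sharing most was the partner in each pair. On chromosome 6 this held for 92.1% of windows of H4C11 and 92.6% of H4C12, each sharing most with the other. In all, 34 members had a shared window. Among those with a smaller part shared were H2AC14 (66.3%), H2AC13 (62.3%), H3C13 (32.6%), H2AC20 (23.4%) and H2BC12 (16.8%). The counting settings for such reads are not given in the sources used here. Values of members with shared windows are therefore uncertain, those of the 8 genes in the pairs above in particular, and each class was also summed. H3C4 and H2AC7 had 0 counts in all 30 libraries. In the GENCODE v44 annotation, 96.6% of the exon of H3C4 and 85.3% of that of H2AC7 lie within an unnamed gene on the same strand (ENSG00000282988), so a count of 0 there does not measure their expression. H2AC17 overlaps H3C12 on the same strand over 71.0% of its exon and had 7 counts in all.

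Total counts per library ranged from 5906167 to 27419145, and the 65 genes took 0.773% to 1.19% of all counts in cytosol and 0.113% to 0.245% in granule libraries. After a filter on low counts, 50 members were tested in cytosol, 48 in granules and 49 between the fractions. The 15 never tested had at most 12 counts in any library (H1-1, H1-5, H2AC1, H2AC7, H2AC17, H2BC1, H2BC9, H2BC14, H3C3, H3C4, H3C8, H3C11, H4C6, H4C7 and H4C13). H2BC3 was not tested in granules, and H4C9 only in cytosol. In cytosol of these cells, labelled epithelial, the epithelial markers KRT8 (89.8 to 193 CPM), KRT18 (81.6 to 174) and EPCAM (68.8 to 145) were present and CDH1 was low (3.57 to 10.8). The mesenchymal marker VIM was higher (618 to 864 CPM), and CDH2 (168 to 238) overlapped KRT8 and KRT18. Of markers of other cells, HBB had 0 counts, and PTPRC, ALB, PECAM1 and MYH7 were at most at 0.447 CPM. COL1A1 was at 1.15 to 5.39 CPM, which overlapped CDH1. CPM are counts scaled to a common library size with TMM factors. TIA1 itself had 3 counts over the 30 libraries, with at most 1 in any library. Neither a transgene nor an endogenous transcript was therefore seen under this gene, and it could not be used to check the labels. The cause was not tested. The long nuclear RNA NEAT1 was at 50.0 to 246 CPM in cytosol and 1469 to 2637 CPM in granule libraries. One granule library stood apart: replicate 1 of WDM with tetracycline, whose summed histone level was 1312 CPM against 2611 and 2514 in its replicates. Its ribosomal protein mRNAs (8587 against 14263 and 14612 CPM) and mitochondrial transcripts (1159 against 3636 and 4504) were also low, and results that rest on it are given with and without it.

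**Figure D1:**
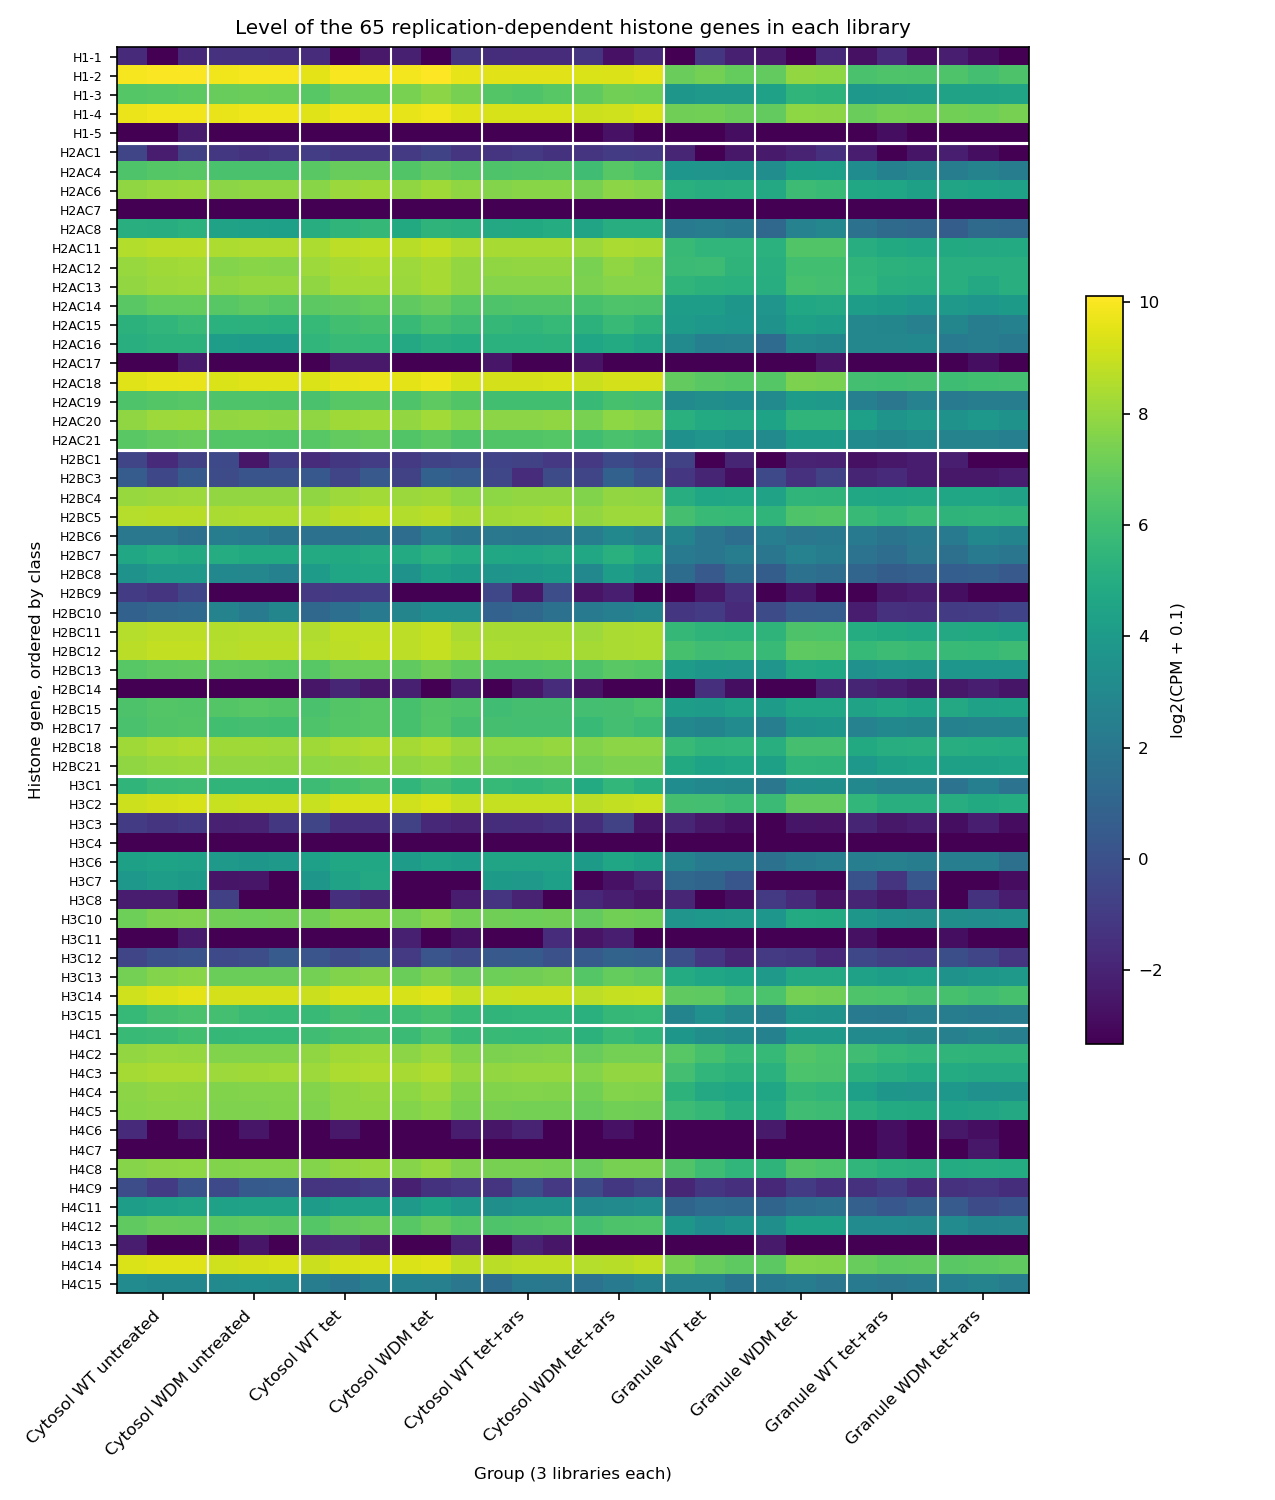
Heat map of log2(CPM + 0.1) for each of the 65 histone genes (rows, ordered by class) in each of the 30 libraries (columns, 3 per group, labelled by fraction, line and treatment; tet, tetracycline; ars, arsenite). The 12 granule columns on the right are darker for nearly every expressed gene, and H3C7 is dark in all 15 libraries of the WDM line.

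Linker histone counts came almost entirely from a few genes. In untreated WT cytosol, H1-2 was at 972, 1054 and 1047 CPM and H1-4 at 838, 909 and 917 CPM. H1-3 was at 92.9, 97.0 and 104 CPM, below both in every library. Counts here are not divided by transcript length. H1-1 had 66 counts and H1-5 had 4 over all 30 libraries, with at most 6 and 1 in any library. The strand setting and treatment of shared reads in the counting are not given, so these low counts may not measure expression. Among the core histones, H2AC18 took 27.5% of the H2A counts of cytosol libraries on average, H2BC12 18.2% of H2B, H3C14 36.9% of H3 and H4C14 30.3% of H4. H2AC11 and H2AC12 followed in the H2A class, H2BC11 and H2BC5 in H2B, H3C2 in H3, and H4C3 and H4C2 in H4.

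The summed level of all members was 11156 ± 750 CPM (SD, n = 3) in untreated WT cytosol and 9942 ± 237 CPM in untreated WDM cytosol. The libraries of the lines did not overlap, and the log2 difference was -0.16 with a standard error of 0.06. H2A made up 24.9% of the sum in WT and H2B 22.0%, with H4 at 19.2%, H1 at 18.0% and H3 at 15.8%. With tetracycline the sums of the lines overlapped (11034 ± 1315 CPM in WT and 10676 ± 1630 in WDM). The summed level of the S-phase genes differed in the same direction, 6011 to 6271 CPM in untreated WT and 5288 to 5629 in untreated WDM, without overlap. Of 25 tested S-phase genes, 23 had a negative log2 difference there (median -0.14), with 4 called lower and 1 higher. Among all genes, 9.78% were called there (5.6% lower). With tetracycline their sums overlapped (6289 to 7594 CPM in WT and 5679.8 to 6466 in WDM). Other lists were also lower in untreated WDM, without overlap. Ribosomal protein mRNAs summed to 55656 to 59027 CPM in WT and 50526 to 53838 in WDM. Genes of G2 and mitosis summed to 4652 to 4728 against 4268 to 4577. Replication-independent histone genes summed to 2292 to 2463 against 2159 to 2186. Mitochondrial transcripts overlapped (1520 to 1678 against 1638 to 1982). The part of this wider difference in the histone sums was not tested. In these bulk samples, fewer cells in S phase and less histone mRNA per cell cannot be told apart.

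**Figure D2:**
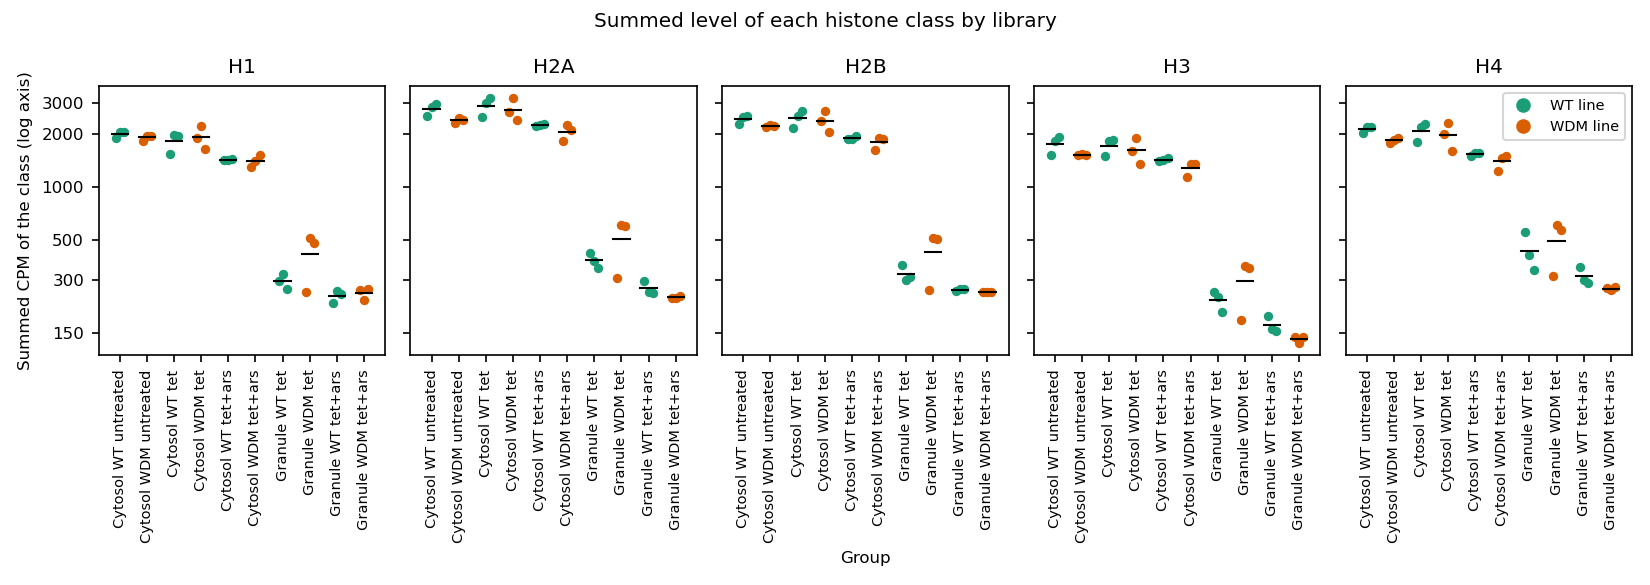
Summed CPM (log axis) of each histone class in each library. Each point is 1 library, each black line the mean of 3, green marks the WT line and orange the WDM line. In every class the granule groups lie below the cytosol groups, and within granules of the WDM line with tetracycline 1 library lies well below the other 2.

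The largest difference between the lines was at H3C7, a single-exon copy of the histone H3 gene that shares no 50-base window with another member. It gave 143, 171 and 160 counts in untreated WT cytosol and 1, 1 and 0 in untreated WDM cytosol. With tetracycline the counts were 179, 242 and 309 in WT and 0 in all 3 WDM libraries, and with arsenite 202, 202 and 257 against 0, 1 and 2. Every WT library stood above every WDM library in each condition. The untreated ratio of summed levels was 319, with a 95% interval from counting error of 87.8 to 2640, and the arsenite ratio was 266 (90.6 to 1293). With tetracycline the level was at least 251-fold lower in WDM, taking 3 counts over the group as the floor. Granule RNA gave the same order, with 13, 23 and 27 counts in WT and 0 in all 3 WDM libraries with tetracycline (at least 19.9-fold lower). With arsenite, granules held 17, 8 and 32 counts in WT and 0, 0 and 1 in WDM (ratio 63.2, interval 10.9 to 2538). In edgeR's quasi-likelihood test, adjusted by Benjamini-Hochberg over all genes, the adjusted p in cytosol was 9.2e-10 untreated, 3.2e-10 with tetracycline and 2.8e-10 with arsenite. In granules it was 1.8e-05 and 4.2e-05. No alternative setting and no left-out library removed any of these calls. Counting error is all that these intervals and floors include, because PCR copies of 1 molecule were not told apart.

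H2BC9, an H2B gene that begins 1015 bases beyond H3C7 on the opposite strand, was expressed at a far lower level and showed the same order. It was singled out after its values were seen. Untreated WT cytosol held 4, 3 and 6 counts and the tetracycline group 5, 5 and 5, while all 6 matching WDM libraries held 0. With arsenite the counts were 8, 1 and 11 in WT and 1, 2 and 0 in WDM, and these ranges overlapped. The WDM level was at least 5.83-fold lower untreated and at least 5.15-fold lower with tetracycline. The gene did not pass the low-count filter. In the edgeR fit without that filter, its adjusted p was 0.0012 in both conditions and 0.0067 with arsenite.

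The upstream sequences of these neighbours are shown because the transcripts of both were at or near 0 in the same line. Each runs 250 bases up to the RefSeq start (GRCh38.p14), and capitals mark the TATA box letters TATAAA, the octamer ATTTGCAT and the box CCAAT on either strand, which may overlap their own reverse complements.
H3C7, chr6:26250636-26250885, minus strand: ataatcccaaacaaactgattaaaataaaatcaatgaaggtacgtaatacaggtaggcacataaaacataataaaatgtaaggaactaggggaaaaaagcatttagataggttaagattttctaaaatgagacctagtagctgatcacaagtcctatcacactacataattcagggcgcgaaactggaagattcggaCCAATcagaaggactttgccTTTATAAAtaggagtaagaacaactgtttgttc
H2BC9, chr6:26251364-26251613, plus strand: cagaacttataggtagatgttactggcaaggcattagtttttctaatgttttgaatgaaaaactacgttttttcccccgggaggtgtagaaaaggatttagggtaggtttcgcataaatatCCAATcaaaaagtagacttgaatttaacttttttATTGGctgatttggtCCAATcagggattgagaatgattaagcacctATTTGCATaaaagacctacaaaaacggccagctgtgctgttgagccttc
Such motifs were common in the set. Over the 60 members with a RefSeq promoter of 300 bases, TATAAA was found in 68.3% (11.5% of all 35116 promoters), CCAAT in 85.0% (34.6%) and ATTTGCAT in 43.3% (1.77%). CCAAT was present in every H1, H2A, H2B and H3 promoter matched and in 25.0% of the H4 promoters. ATTTGCAT, the octamer that POU2F1 recognises, was found in 82.4% of H2B and 73.3% of H2A promoters and in no H1 or H4 promoter. These are matches of letters, with no measurement of binding.

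Other members of the same stretch of chromosome 6 went both ways. H3C6, which spans 26224199 to 26227473, was lower in untreated WDM (-0.52, edgeR adjusted p = 0.023). H2BC10, which spans 26272931 to 26273412, was at 1.69, 2.05 and 2.27 CPM in untreated WT and 6.22, 4.72 and 7.05 CPM in untreated WDM cytosol. Every WDM library was above every WT library in all 3 conditions, with log2 differences of 1.57 ± 0.27 (SE), 1.40 ± 0.24 and 1.20 ± 0.25 (edgeR adjusted p = 0.00053, 0.00032 and 0.0023). H1-3, on the other side of H3C7, was at 99.2, 129 and 138 CPM in WT and 169, 222 and 161 CPM in WDM with tetracycline, without overlap. Its log2 difference was 0.59 ± 0.13 with tetracycline (edgeR adjusted p = 0.0034), 0.59 ± 0.13 with arsenite (0.0043) and 0.40 ± 0.13 untreated, which did not pass (0.058). H4C8, the next member beyond H2BC10, differed by -0.14 untreated (adjusted p = 0.48). H4C6, H4C7 and H3C8 lie in the same stretch and had at most 7 counts in any library.

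The other members that differed between the lines in every cytosol condition were few. H2AC16, an H2A copy in the distal part of the chromosome 6 cluster (27865317 to 27865798), was at 35.0, 39.3 and 39.7 CPM in untreated WT and 17.8, 17.3 and 16.2 CPM in untreated WDM cytosol. It stayed lower in WDM with tetracycline (45.2, 54.0 and 51.7 against 27.2, 35.8 and 31.8 CPM) and with arsenite (37.8, 37.4 and 39.2 against 23.7, 29.3 and 23.2 CPM). The groups did not overlap, and the log2 differences were -1.15 ± 0.11, -0.66 ± 0.11 and -0.57 ± 0.11 (edgeR adjusted p = 5.4e-07, 0.00022 and 0.0011). H2BC8 (-0.96 ± 0.28) and H2AC8 (-0.78 ± 0.16) were lower in untreated WDM and did not pass with tetracycline or arsenite. The test of a line difference in the tetracycline response called neither.

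In all, 11 of 50 tested members were called between the untreated lines, 1 higher and 10 lower in WDM, where 9.78% of all 16670 genes were called (4.19% higher and 5.6% lower). With tetracycline 4 were called, 2 each way (12.6% of all genes, 5.8% higher and 6.84% lower). With arsenite 7 were called, 3 higher and 4 lower (10.4% of all genes, 4.98% higher and 5.37% lower). These counts changed when single libraries were left out, so no difference from the share over all genes is read from them. The untreated count rested on small differences. It was 5 without WT replicate 2 or 3 or WDM replicate 3, 6 without WDM replicate 1 or 2, and 32 in a fit of the untreated groups alone. With tetracycline it was 9 without WT replicate 1 and 10 without WDM replicate 2, and with arsenite 4 without replicate 3 of either line. H3C7, H2BC10 and H2AC16 stayed called without any one library, as did H2AC8 in the untreated comparison.

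**Figure D3:**
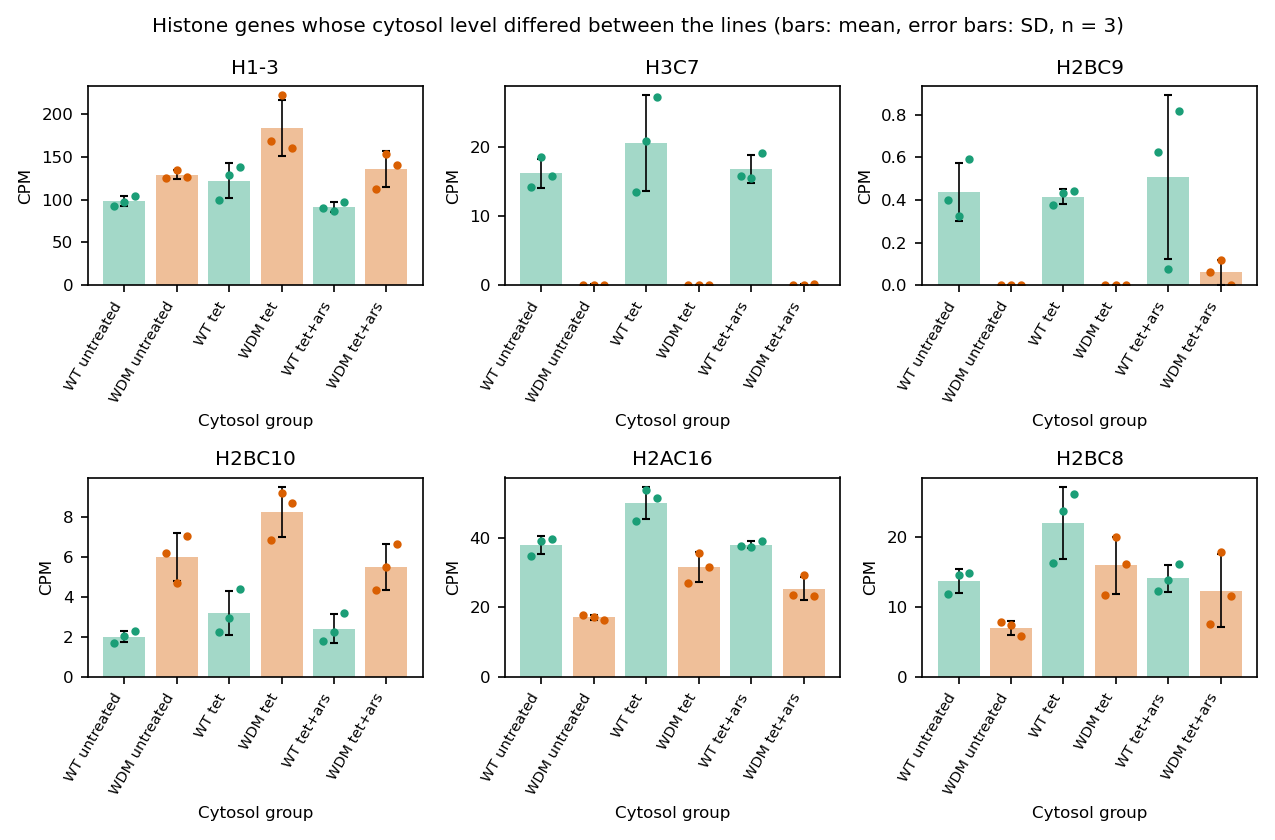
Cytosol CPM of 6 histone genes by line and treatment. Bars are means of 3 libraries, error bars the SD and points the libraries, with each axis starting at 0 on its own linear scale. H3C7 and H2BC9 are at or near 0 in the WDM line, H2BC10 is higher and H2AC16 lower there in all 3 conditions. H1-3 passed the test with tetracycline and arsenite only, and H2BC8 passed untreated only, its libraries overlapping in the other conditions.

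In granule RNA, the line difference with tetracycline was called for 4 of 48 members (5.55% of all 18366 genes, 2.6% higher and 2.95% lower): H1-3, H2BC10 and H3C10 higher in WDM, and H3C7 lower. H1-3 was at 13.6, 15.4 and 14.8 CPM in WT and 20.3, 43.9 and 40.4 CPM in WDM (log2 difference 1.25 ± 0.21, edgeR adjusted p = 0.00019). H3C10 was at 12.6, 14.3 and 15.0 against 13.0, 29.9 and 28.3 CPM, and these ranges overlapped through replicate 1 of WDM. Without that library 23 members were called, 22 higher and 1 lower (6.97% of all genes, 3.58% higher and 3.4% lower), and the median member changed by 0.57 instead of 0.30. The count was 2 without WT replicate 3 or WDM replicate 3. With arsenite 1 member was called in granules (7.95% of all genes, 4.11% higher and 3.84% lower), H3C7 (2 without WDM replicate 2), and H2BC10 differed by 1.03 without passing.

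Tetracycline changed few histone mRNAs in cytosol. In WT 2 of 50 members were called (5.31% of all genes, 2.93% higher and 2.39% lower), H2AC16 higher (0.39 ± 0.11, edgeR adjusted p = 0.039) and H4C15 lower (-0.81 ± 0.21, 0.030). In WDM 8 were called (6.3% of all genes, 3.07% higher and 3.23% lower), 6 higher and 2 lower. H2BC8 rose from 7.75, 7.40 and 5.82 to 11.7, 20.0 and 16.1 CPM (log2 1.19 ± 0.27, adjusted p = 0.017). H2AC8 rose from 21.3, 20.1 and 18.8 to 28.9, 43.0 and 40.0 CPM (0.89 ± 0.16, 0.0023), and H2AC16 by 0.88 ± 0.11 (0.00018). H2AC12, H2AC15 and H1-3 were the other 3 higher. H4C15 fell from 8.65, 9.00 and 8.38 to 5.80, 5.57 and 3.97 CPM (-0.81 ± 0.20, 0.019), and H4C9, at under 2 CPM, was lower as well. The values of H4C15 are uncertain in both lines, because it shares most of its sequence with H4C14. No member's response differed between the lines by the interaction test in edgeR (0.018% of all genes called, 0.012% higher and 0.006% lower), with 2 members at an unadjusted p under 0.05 and 0 called by DESeq2. The WT count was 8 without tetracycline replicate 1 and 0 without any other single WT library, and the WDM count was 4 without untreated replicate 1, 3 without untreated replicate 2 or 3 and 5 without tetracycline replicate 2. H2AC8 and H2AC16 in WDM were called in every such fit.

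Genes that make, process and degrade histone mRNA were compared between the lines as well. Of 24 genes of histone transcription, 3' processing and decay, 5 were called between untreated lines, where 9.78% of all genes were called. LSM11, a subunit of the U7 snRNP, was higher in WDM (0.29), and 4 were lower (5.6% of all genes). CCNE2 had the lowest value of the list (-0.57). ERI1, the exonuclease that trims the histone stem-loop, differed by -0.45 untreated, -0.61 with tetracycline and -0.49 with arsenite (edgeR adjusted p = 0.0028, 9.7e-05 and 0.00085). CPSF3, the nuclease that cuts histone pre-mRNA, differed by -0.52, -0.43 and -0.41 (0.004, 0.012 and 0.019). NPAT, the coactivator of histone gene transcription, differed by 0.00 untreated (adjusted p = 0.99), and SLBP by 0.06 (0.79).

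Arsenite lowered histone mRNA in the cytosol of both lines. The summed level of all members fell from 9534, 11579 and 11988 CPM to 8460.5, 8565 and 8720.01 CPM in WT. In WDM it fell from 10566, 12357 and 9103 to 7139, 8411 and 8390.4 CPM. The groups did not overlap in either line, and the means were 1.28-fold and 1.33-fold lower. Of 50 members, 34 were called lower and 0 higher in WT, where 29% of all genes were called (13.7% higher and 15.4% lower). In WDM 36 were called lower and 2 higher, against 28.8% of all genes (14.1% higher and 14.8% lower). The median member changed by -0.40 in both lines, while the median of all genes was -0.02 in WT and -0.00 in WDM. The tetracycline libraries were uneven. Ribosomal protein mRNAs were at 46550, 58646 and 58027 CPM in WT and 52898, 57738 and 43096 in WDM. NEAT1 was at 134, 50.0 and 57.9 CPM in WT and 173, 66.2 and 151 in WDM. With single tetracycline libraries left out, the log2 difference of the sum ran from -0.46 to -0.29 in WT and -0.52 to -0.30 in WDM.

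In sums of CPM, H4 fell most and H3 least. The log2 difference of the H4 sum was -0.44 ± 0.11 (SE) in WT and -0.48 ± 0.18 in WDM, and that of the H3 sum -0.26 ± 0.10 and -0.33 ± 0.16; the difference between the classes was not tested. With the mean of log2 CPM over members in place of the sum, H3 had values of -0.22 in WT and -0.07 in WDM, again the least lowered. In WDM H1 (-0.45) and H2A (-0.41) were below H4 (-0.38). The mean gives every copy the same weight, also H3C7, which had 0, 0 and 0 counts before and 0, 1 and 2 after arsenite in WDM, so its H3 value there is uncertain. H4C11 had the lowest value among members above 2 CPM. Its values are uncertain, because 92.1% of its windows occur in another member, with H4C12 sharing most. H4C11 went from 17.3, 20.8 and 20.2 to 10.2, 11.6 and 11.2 CPM in WT and from 15.5, 22.2 and 15.3 to 7.63, 8.54 and 9.48 CPM in WDM, without overlap (log2 -0.83 ± 0.14 and -1.04 ± 0.14, edgeR adjusted p = 0.0003 and 5.4e-05). H4C2 fell from 238, 291 and 304 to 176, 182 and 190 CPM in WT and from 220, 275 and 185 to 124, 159 and 159 CPM in WDM (-0.62 ± 0.12 in both, 0.0009 and 0.00096). The most abundant linker mRNA, H1-2, was at 764, 995 and 973 CPM before and at 722, 723 and 720 CPM after arsenite in WT. The 2 members called higher in WDM were H2BC6 (2.71, 5.18 and 3.55 to 5.15, 7.49 and 5.57 CPM, 0.66 ± 0.20, adjusted p = 0.020) and H3C12. H3C12, named after its values were seen, stayed under 2 CPM (1.07 ± 0.31, 0.015).

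No member's arsenite response differed between the lines in cytosol by the interaction test in edgeR, which called 0% of all genes, and 0 members had an unadjusted p under 0.05 or were called by DESeq2. Without tetracycline replicate 2 or 3, the WT count was 16, and it was 20 and 19 without arsenite replicate 1 and 2. In WDM it was 16 without tetracycline replicate 2 and 20 without arsenite replicate 1. Scaled by library size alone, the median of all genes in WT moved by 0.13. The members' median then was -0.26, which is -0.38 relative to all genes under either scaling, and 19 were called.

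Other short or cycle-linked mRNAs moved in the same comparison. Of 74 tested ribosomal protein genes, which encode short polyadenylated mRNAs, 52 were lower and 1 higher in WT (median -0.31) and 67 lower and 1 higher in WDM (median -0.38). Of 25 tested S-phase genes, 9 were lower and 1 higher in WT (median -0.23) and 4 lower and 1 higher in WDM (median -0.14). Of 16 genes of G2 and mitosis, 1 was lower in WT and 2 in WDM (medians -0.13 and -0.08). Of 12 replication-independent histone genes, 4 were lower in WT and 2 in WDM (medians -0.18 and -0.20), including H2AZ1, an H2A variant (-0.37 in both). Among all genes, 29% were called in WT (15.4% lower) and 28.8% in WDM (14.8% lower). The part of these list changes in the result for the members was not tested.

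Histone mRNAs were depleted from granule RNA relative to cytosol in both lines and both treatments. The summed level was 6.62-fold lower in WT granules with tetracycline (1668 ± 219 against 11034 ± 1315 CPM, SD, n = 3) and 6.87-fold lower with arsenite. In WDM it was 5.17-fold lower with tetracycline and 6.93-fold lower with arsenite. All granule libraries lay below all cytosol libraries. Of 49 members tested, 47 were called lower in WT with tetracycline and 47 with arsenite, where 75.7% and 70.5% of all 18141 genes were called (39.5% and 35% higher, 36.2% and 35.5% lower). In WDM 46 were called lower in each treatment (71.1% and 72% of all genes, 35.8% and 36.3% higher, 35.3% and 35.7% lower). None was called higher. The member medians were -2.90, -2.91, -2.44 and -3.04 in that order, and those of all genes lay between 0.02 and 0.07. Without the WDM tetracycline library that stood apart, 46 of 50 were called lower (64.7% of all genes called, 32.7% higher and 32% lower) and the median was -2.15.

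The depletion covered every class and was smallest for H4. With tetracycline in WT, the log2 differences of the class sums were -2.64 (H1), -2.91 (H2A), -2.93 (H2B), -2.91 (H3) and -2.29 (H4). In each of the other 3 comparisons the H4 sum was again the least lowered (-2.31 in WT with arsenite, -2.03 and -2.39 in WDM). H4 made up 19.0% of the histone counts in WT cytosol with tetracycline and 25.9% in granules; the difference between classes was not tested. H3C10 (152, 188 and 188 CPM in cytosol and 12.6, 14.3 and 15.0 CPM in granules, -3.65 ± 0.21, edgeR adjusted p = 2.8e-14), H2BC17 (-3.58) and H3C7 (-3.69) were the lowest in WT with tetracycline. H2AC20 was lowest in WDM with arsenite (169, 229 and 202 against 12.0, 14.3 and 11.3 CPM, -4.04 ± 0.22, 4e-15), followed by H3C2 (-3.95) and H2AC8 (-3.92).

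**Figure D4:**
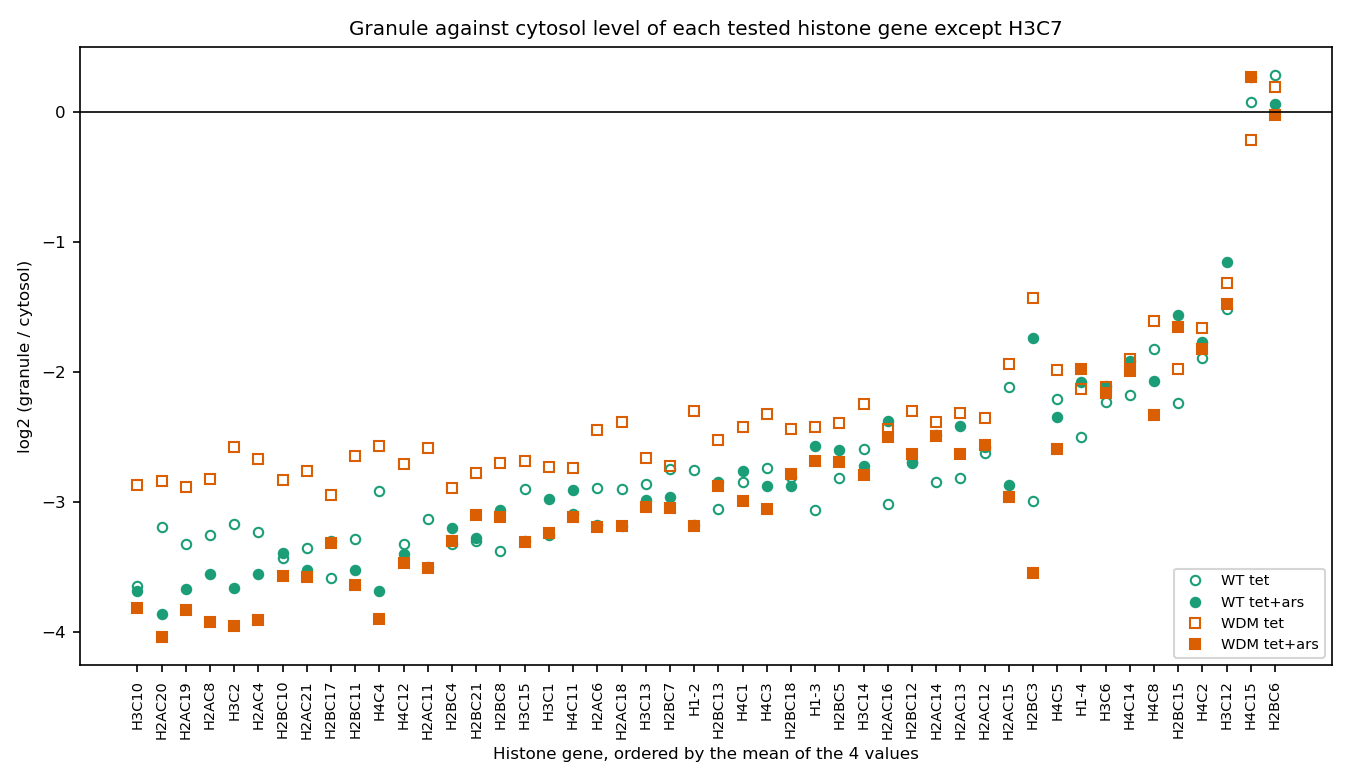
log2 ratio of granule to cytosol level for each of the tested histone genes except H3C7, ordered by the mean of the 4 values. Circles are the WT line and squares the WDM line, open with tetracycline and filled with tetracycline plus arsenite. H2BC6 and H4C15 lie near 0, and all other points lie between -4.04 and -1.15.

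A pair of genes was not depleted. H2BC6, an H2B gene with a spliced transcript and a span of 12597 bases, was at 3.16, 3.11 and 3.53 CPM in WT cytosol and 6.47, 3.75 and 2.81 CPM in WT granules with tetracycline. H4C15 was at 4.96, 3.80 and 5.21 CPM in cytosol and 5.96, 5.84 and 3.60 CPM in granules. The groups overlapped for both, and their log2 differences over the 4 comparisons ran from -0.03 to 0.28 and from -0.22 to 0.27, with no adjusted p below 0.29. H4C14, the near-identical copy of H4C15, was at 528, 632 and 661 CPM in cytosol and 167, 128 and 111 CPM in granules. Reads of this pair cannot be assigned apart over most of the gene, so the low value of H4C15 is uncertain. H3C7 had 0 counts in both fractions of WDM with tetracycline and gave no value there.

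Gene structure was weakly related to the depletion. Members with 1 exon and a span under 1 kb (28 of 49; 27 of 48 in WDM with tetracycline, where H3C7 had no counts) had a median of -3.03 in WT with tetracycline, and the 21 longer or spliced members a median of -2.74. With arsenite the medians were -2.98 and -2.72 in WT and -3.15 and -2.78 in WDM, and in WDM with tetracycline -2.52 and -2.39. Spearman's rho between span and log2 difference across the 49 members (48 in WDM with tetracycline) was 0.29 to 0.34, as a description only, since the members share libraries and some share reads.

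Ribosomal protein mRNAs were depleted to a like extent, with medians of -2.47 and -3.06 in WT (tetracycline, arsenite) and -2.17 and -3.07 in WDM, and 72 to 74 of 74 called lower. The 12 replication-independent histone genes had medians of -1.70, -1.42, -1.58 and -1.39, with 9 to 11 called lower and none higher. Over all genes, 35.3% to 36.2% were called lower in these comparisons. For H2AZ1 the difference was -2.97 in WT with tetracycline. The S-phase genes had medians between -0.96 and -0.71. Differences between these lists and the members were not tested.

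Arsenite also lowered histone mRNA within granule RNA. In WT the sum went from 1894, 1653 and 1457 to 1313, 1230.1 and 1207 CPM, without overlap, and 12 of 48 members were called lower and 0 higher (30.6% of all genes called, 16.5% higher and 14.1% lower). In WDM it went from 1312, 2611 and 2514 to 1162, 1112 and 1174 CPM, and 37 were called lower and 0 higher (36.3% of all genes, 18.7% higher and 17.7% lower). The member medians were -0.31 in WT and -0.82 in WDM, and those of all genes -0.03 and 0.01. Without replicate 1 of WDM with tetracycline, 41 were called lower (33.6% of all genes, 17.6% higher and 16% lower) and the median was -1.06. Without replicate 2 or 3 of that group the count was 24. In WT the count was 4 without replicate 2 of either treatment, 5 without arsenite replicate 3 and 7 without replicate 1 of either.

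The 12 members called lower in WT were 1 of 3 tested H1 genes, 6 of 13 H2A, 1 of 13 H2B, 2 of 9 H3 and 2 of 10 H4. In WDM the 37 were 2 of 3 tested H1 genes, 11 of 13 H2A, 9 of 13 H2B, 6 of 9 H3 and 9 of 10 H4. H2AC15 went from 17.0, 14.3 and 13.3 to 7.31, 7.07 and 5.56 CPM in WT (-1.05 ± 0.21, edgeR adjusted p = 0.00058) and from 11.8, 19.4 and 17.9 to 7.17, 5.16 and 5.80 CPM in WDM. H4C4 went from 40.3, 27.8 and 24.6 to 19.1, 13.6 and 12.7 CPM in WT (-0.92 ± 0.23, 0.0042) and from 23.6, 48.8 and 45.8 to 14.4, 11.1 and 11.9 CPM in WDM (-1.58 ± 0.23, 1.2e-05). H3C2 went from 57.6, 116 and 117 to 32.3, 28.3 and 31.9 CPM in WDM (-1.57 ± 0.20, 2.7e-06). None of these groups overlapped. H1-2 was called lower in both lines, whereas H1-4 was at 148, 150 and 129 CPM before and 130, 160 and 151 CPM after arsenite in WT, with overlap, and was called in neither line. The difference between the lines in the response was -0.56 for the median member (0.01 for all genes). The interaction test in edgeR called 0 members and 0% of all genes, with 12 members at an unadjusted p under 0.05. DESeq2 called 0, as did edgeR without the library that stood apart.

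**Figure D5:**
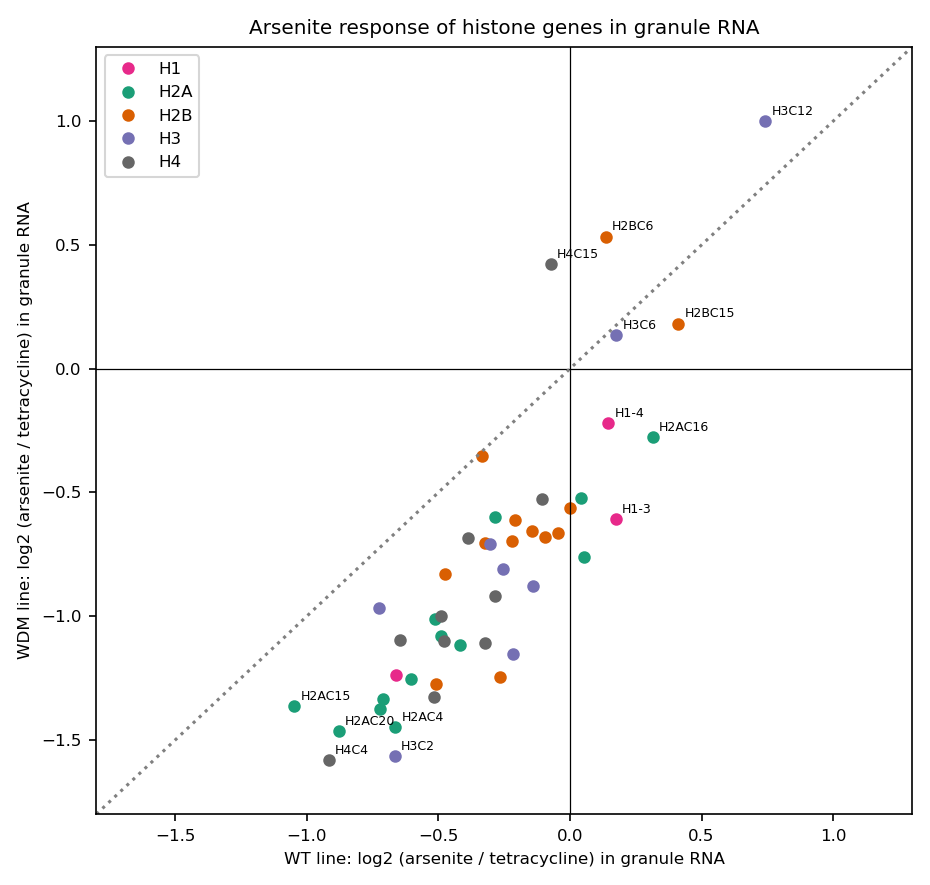
log2 change of each tested histone gene except H3C7 with arsenite in granule RNA, for the WT line (horizontal axis) and the WDM line (vertical axis), coloured by class. The dotted line marks equal change. Most points lie below it, and H3C12, H2BC6, H2BC15 and H3C6 lie above 0 on both axes, none of them called.

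Mitochondrial transcripts were lower in the same granule comparison, at a mean of 3029 CPM with tetracycline and 859 with arsenite in WT, without overlap. In WDM the means were 3100 and 1190 CPM, and the ranges overlapped through the library that stood apart. Ribosomal protein mRNAs fell as well, 61 of 74 lower in WT (median -0.74) and 69 lower and 1 higher in WDM (median -1.20). The part of either in the result for the histone genes was not tested. SLBP, whose protein binds the histone stem-loop, went the other way. Its polyadenylated mRNA was at 53.1 ± 2.21 CPM in WT granules with tetracycline and 110 ± 14.6 CPM with arsenite (log2 1.16 ± 0.16, edgeR adjusted p = 1.2e-05). In WDM it was at 54.9 ± 6.11 and 93.0 ± 13.0 CPM (0.84 ± 0.16, 0.00019). In the cytosol it fell with arsenite in WT (-0.37 ± 0.11, 0.015), and in WDM its value was -0.22 (0.13). Of the 24 genes of its list, 9 rose and 2 fell in WT granules and 6 rose and 5 fell in WDM granules. Among all genes, 30.6% and 36.3% were called in these comparisons. CPSF3 was the lowest in both lines (-0.99 and -1.56).

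The granule-to-cytosol ratio itself changed with arsenite for some members. In WT 3 of 49 were called by the interaction test (31.4% of all genes, 12% higher and 19.4% lower): H2BC15 became less depleted (0.67 ± 0.21, edgeR adjusted p = 0.015), and H2AC15 (-0.75 ± 0.26, 0.028) and H4C4 (-0.76 ± 0.29, 0.048) more depleted. In WDM 16 were called, all more depleted (24.2% of all genes, 7.66% higher and 16.5% lower), led by H3C2 (-1.37 ± 0.27, 0.00058), H4C4 (-1.33 ± 0.29, 0.0018) and H2AC4 (-1.23 ± 0.28, 0.002). Of these, 9 were among the 13 tested H2A copies. The median member changed by -0.51 in WDM and -0.03 in WT, where the median of all genes was -0.17 and -0.21. Without replicate 1 of WDM with tetracycline 31 were called (21.2% of all genes, 5.76% higher and 15.4% lower), and without replicate 2 or 3 of that group 10 and 9. In WT the count was 1 without replicate 1 of the tetracycline cytosol group, replicate 1 or 3 of the arsenite cytosol group or replicate 3 of the arsenite granule group. The ratio did not pass the test of a line difference for any member with tetracycline or with arsenite in edgeR (0.00551% of all genes in each; 9 and 0 members at an unadjusted p under 0.05; 0 by DESeq2).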

How the data were processed

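RNA-seq counts of 18 cytosol and 12 granule libraries were used, grouped by the sample titles. The authors deposited raw read counts per gene in 1 table with a column per library. Per the submitters' processing notes, Trimmomatic, STAR, Picard and featureCounts were used with GRCh38. Their versions, roles, strand setting and treatment of shared reads are not given in the sources used here. Libraries were stranded, made with a TruSeq total RNA kit after Ribo-Zero Gold, per the labels.

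Differences were tested with edgeR 4.0.16 (R 4.3.3): filterByExpr (minimum count 10, minimum total 15), TMM factors, robust quasi-likelihood fits with no covariates, and Benjamini-Hochberg adjustment over every gene in the fit. An adjusted p under 0.05 counted as a call. The 18 cytosol libraries (16670 genes, biological coefficient of variation 0.103), the 12 granule libraries (18366, 0.161) and the 24 libraries of tetracycline-treated cells for comparisons between fractions (18141, 0.145) were fitted separately, giving 22 comparisons (15 of group pairs, 7 interactions). A value after ± is the standard error of a log2 fold change, or the SD where stated. Printed CPM used TMM factors over all 30 libraries. Sums over a class have no test, and ratios near 0 counts carry a 95% exact binomial interval. The method was tested on simulated counts with known changes.

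Replicates were compared first: within groups, chi-square per degree of freedom was 1.63 to 40.7, so none was counted as a repeat. In the labels, replicate numbers recur in each group. Samples with the same number deviated together (r over 0.1 in every pair) in 2 of 15 comparisons (WDM granules, arsenite against tetracycline; WDM with arsenite, granule against cytosol). The numbers were taken to pair the samples there only, from the data and not the labels. The replicate block was fitted over all libraries of a fit, so no fit paired those comparisons alone. Values printed throughout come from the fit without the block.

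Genes were found in GENCODE v44 by identifier (63 of 65; H2AC18 and H2AC19 by symbol), 42 with the same coordinates; stem-loops were read from the GRCh38 genome and promoters taken from RefSeq (GRCh38.p14, 60 of 65 matched). The members and gene lists were chosen with earlier results of these data known. Described singly were the 3 most abundant members of each class, all H1 genes, up to 3 highest and 3 lowest called members per pair of groups with at least 2 CPM, up to 3 called per interaction, and the list genes; others are marked. Alternatives were DESeq2 1.42.0, RLE factors, scaling by library size alone, the replicate block, omitting the count filter, only the groups compared, other forms of the class sum and each library left out. Tables and figures used Python 3.11.15, pandas 2.3.3 and matplotlib 3.10.9.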

Additional observations from a re-analysis of the deposited data

Results flagged for a closer look

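The results given here are members whose granule-to-cytosol ratio responded to arsenite by the interaction test, that is, whose arsenite effect differed between cytosol and granule RNA at an edgeR adjusted p under 0.05. Values are differences of log2 ratios, arsenite minus tetracycline. The median of all genes was -0.21 in WT and -0.17 in WDM. In the WT line 3 of 49 members were called, where 31.4% of all genes were (12% higher and 19.4% lower). They were H2BC15 (0.67), H2AC15 (-0.75) and H4C4 (-0.76). With single libraries left out, the count ran from 1 to 4 in WT and from 9 to 31 in WDM. In the WDM line 16 of 49 members were called, where 24.2% of all genes were (7.66% higher and 16.5% lower). Of these, 9 were H2A copies: H2AC4 (-1.23), H2AC20 (-1.20), H2AC8 (-1.10), H2AC15 (-1.02), H2AC19 (-0.95), H2AC11 (-0.92), H2AC21 (-0.82), H2AC18 (-0.80) and H2AC6 (-0.74). The others in WDM were H2BC3 (-2.11), H2BC11 (-0.99), H3C2 (-1.37), H3C10 (-0.95), H4C4 (-1.33), H4C12 (-0.77) and H1-2 (-0.89). H2BC3 had at most 29 counts in any library. H2AC15 and H4C4 were called in both lines, and the difference between the lines in this change was not tested.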

How the results depend on the processing

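Copies that share reads, 3 libraries per group, uneven tetracycline libraries in cytosol and 1 granule library that stood apart limit these results. Members under 1 CPM are poorly measured. RLE factors and DESeq2 moved no count of called members by more than 1.5 times. A fit of only the groups compared called 32 members between the untreated lines (11 in the report), 14 for arsenite in WDM cytosol (38) and 0 for tetracycline in WT (2). Without the low-count filter 7 were called between the lines with tetracycline (4), 7 for tetracycline in WT and 5 in the WT ratio change (3). Library size alone gave 19 for arsenite in WT cytosol (34) and 1 for tetracycline in WT. With the replicate block, 7 were called between the lines with tetracycline and 6 for tetracycline in WT, and it moved no other count by more than 1.5 times. Samples with the same number had an r of deviations over 0.1 in every pair in 2 of 15 comparisons, arsenite in WDM granules and fractions in WDM with arsenite. There the block, which covered all libraries of the fit, called 37 and 46 members, as without it. Elsewhere at least 1 pair was lower (lowest r -0.23).

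The sum of all members moved by more than the spread in 5 cases. The mean over members of log2 CPM gave -0.28 between the untreated lines, -0.18 between the lines in arsenite granules and -2.69 between the fractions in WT with arsenite. Library size alone gave -0.060 for the second and RLE factors -2.71 for the third. The H2B sum between the lines in arsenite granules (-0.04) turned positive with library size alone (0.017) and with the mean of log2 CPM (0.041). Over all class and total sums, 24 moved beyond the spread with the mean of log2 CPM, 2 with library size alone and 3 with RLE factors. The H3 sum shifted most between the lines with that mean, to -0.92, -0.99 and -0.84 in cytosol, where H3C7 counts as much as any other copy. The mean also gave positive values between the lines for H1 untreated (0.07) and H1 and H2B with arsenite (0.13 and 0.14), whose sums were negative. H4 was the least depleted class in granules under every scaling and form of the sum tried. The cause of the shifts was not tested.

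Leaving out 1 library at a time gave these counts of called members: 5 to 9 between the lines untreated, 4 to 10 with tetracycline and 4 to 8 with arsenite in cytosol, 2 to 23 and 1 to 2 in granules. It gave 0 to 8 and 3 to 8 for tetracycline, 16 to 42 and 16 to 39 for arsenite in cytosol and 4 to 9 and 24 to 41 in granules (WT, WDM). Between fractions it gave 46 to 47, 46 to 47, 45 to 46 and 46 to 47, and for the change of the ratio 1 to 4 (WT) and 9 to 31 (WDM). The other 5 interactions stayed at 0 in every such fit. The sums of all members ran from -0.22 to -0.13, -0.16 to 0.06 and -0.15 to -0.03 between the lines in cytosol, and 0.13 to 0.63 and -0.15 to -0.08 in granules. For tetracycline they ran from -0.08 to 0.08 and -0.02 to 0.20, for arsenite from -0.46 to -0.29 and -0.52 to -0.30 in cytosol and -0.50 to -0.31 and -1.16 to -0.66 in granules. Between fractions they ran from -2.83 to -2.63, -2.82 to -2.75, -2.54 to -2.05 and -2.87 to -2.75.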
